A study of Mus musculus with 12 samples.

Results

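The clustered protocadherins are cell surface adhesion proteins encoded by the alpha, beta and gamma gene clusters, which lie in tandem on mouse chromosome 18. The members were chosen by symbol: 59 of the 23420 genes in the count tables carried a clustered protocadherin symbol, 15 of them alpha, 22 beta and 22 gamma (12 of type A, 7 of type B and 3 of type C). The symbol rule itself used no expression value. Their RNA was measured in whole mouse embryos harvested at embryonic day 12.5 from intercrosses of heterozygotes in 2 lines. The *Carm1* line, on the C57BL/6 strain, gave 3 *Carm1* null embryos homozygous for Carm1tm1Mtb and 3 wild-type embryos. The *Pax3* line, whose strain is labelled mixed, gave 3 *Pax3* null embryos homozygous for Pax3Sp2h and 3 wild-type embryos. Both alleles are carried in every cell of the embryo, and *Carm1* encodes an arginine methyltransferase that coactivates transcription, whereas *Pax3* encodes a transcription factor of the dorsal neural tube, neural crest and muscle precursors. The 12 libraries held 17183344 to 23518692 counts each. The targeted gene was lower in the nulls of both lines, at 72.3 ± 3.55 against 144 ± 6.99 CPM (counts scaled to the size of the library; mean ± SD, n = 3) for *Carm1* and at 20.8 ± 2.4 against 28.1 ± 2.99 CPM for *Pax3*. The labels do not say which embryos were littermates, so litter could not be taken into account. The p-values below set group differences against the spread between these embryos, treated as independent. Each library is a homogenate of all tissues, in which fewer neurons and less RNA per neuron cannot be told apart.

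Neurons are the best known site of clustered protocadherin expression. Each alpha and gamma transcript joins a variable exon, which has its own promoter and encodes the extracellular cadherin repeats and the membrane span, to constant exons shared by the whole cluster, which encode the end of the cytoplasmic tail. The beta genes lack constant exons. A neuron chooses a few of the variable promoters, apparently at random, through promoter and enhancer contacts made by CTCF and cohesin. The C-type genes, *Pcdhac1*, *Pcdhac2*, *Pcdhgc3*, *Pcdhgc4* and *Pcdhgc5*, are exempt from that random choice. The proteins bind copies of themselves on other membranes, and neurons use them in dendrite self-avoidance, axon tiling, synapse formation and survival.

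In the GENCODE annotation of mm10, all members with coordinates were on the plus strand of chromosome 18, within 911.7 kb at chr18:36930184-37841873. The alpha cluster spanned chr18:36930184-37187661, the beta cluster chr18:37264938-37524479 and the gamma cluster chr18:37661793-37841873. Coordinates were found for 57 of the 59 members, all but *Pcdha10* and *Pcdha4-g*. The alpha and gamma members had 4 exons each, the variable exon and 3 shared ones, and the 22 beta members had 1 exon each. The alpha constant exons were 59, 89 and 2712 bases long, and the gamma constant exons 59, 89 and 1971 bases in most members. Reads on those constant exons cannot be assigned to a single member. The annotation also gives *Gm42416*, *Gm37013* and *Gm37388*, which begin inside the variable exons of *Pcdha4*, *Pcdha6* and *Pcdha7* and join them to gamma constant exons, so the counts and levels of these 3 alpha members are uncertain. The nearest protein-coding neighbours were *Zmat2* before the alpha cluster and *Diaph1* after the gamma cluster, and *Slc25a2* and *Taf7* lay between the beta and gamma clusters on the opposite strand.

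The members took up 0.0314% to 0.0409% of the counts of a library. The filter on low counts was passed by 54 of the 59, namely 11 alpha, 21 beta and all 22 gamma members. The 5 members left out were *Pcdha1* with 53 counts over the 12 libraries, *Pcdha8* with 42, *Pcdha4* with 5, *Pcdhb1* with 4 and *Pcdha4-g* with 0. Mean counts in the *Carm1* line ran from 12 to 87.7 for the tested alpha members, from 16.2 to 126 for beta and from 57.3 to 2292 for gamma. The standard error of a log2 fold change was therefore largest in the alpha cluster (median 0.324), smaller in beta (0.25) and smallest in gamma (0.135). Across 57 members, 17 shared at least 1 window of 150 bases with another member, and in 3 of them (*Pcdhb21*, *Pcdhgb2* and *Pcdhgb1*) over 5% of windows were shared, up to 6.72%. *Pcdhb21* and *Pcdhb22* also overlap, so the split of reads between them is uncertain.

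*Pcdhgc3* stood far above the rest. Because the constant exons are shared, levels were compared as CPM per kilobase of exon held by no other member, as the mean of the 12 libraries. On this scale *Pcdhgc3*, which acts outside as well as inside the nervous system and restrains Wnt signalling, was at 49.8, and the range over libraries was 44.3 to 59.3. The next members were *Pcdhgb6* at 5.62 and *Pcdhgb7* at 4.56, and no library held *Pcdhgb6* above 9.00. The order after *Pcdhgc3* differed between the lines: *Pcdhgb6* was at 8.73 in *Carm1* line wild types, followed by *Pcdhga11* at 6.30 and *Pcdhgb7* at 5.82, and at 3.30 in *Pax3* line wild types, below *Pcdhga7* at 4.41, *Pcdhga4* at 4.27, *Pcdhgb7* at 4.14 and *Pcdhga12* at 3.52. The other C-type genes were spread widely, with *Pcdhgc4*, which neurons need for survival, at 3.01, *Pcdhac2*, which tiles serotonergic axons, at 1.48, *Pcdhgc5* at 1.16 and *Pcdhac1* at 0.245. The median level was 0.367 in the alpha cluster, 0.678 in the beta cluster and 2.66 in the gamma cluster. The leading beta members were *Pcdhb7* at 1.56, *Pcdhb17* at 1.48 and *Pcdhb20* at 1.36, whose ranges over libraries overlapped. After *Pcdhac2*, the leading alpha members were *Pcdha12* at 0.50 and *Pcdha3* at 0.467, and these overlapped as well. With the shared exons counted in the length, the medians were 0.17, 0.678 and 1.55, and *Pcdhgc3* again ranked highest. How reads on the shared exons were counted is not given in the sources used here.

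**Figure D1:**
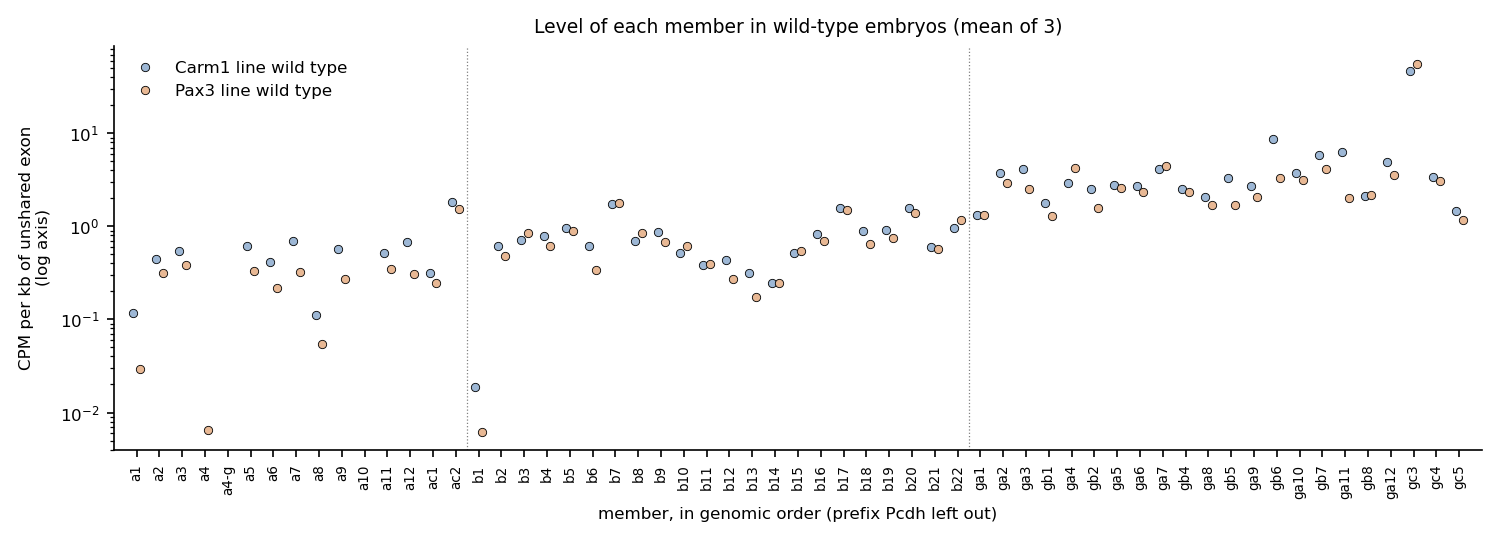
Level of each member in wild-type embryos, as CPM per kilobase of unshared exon on a log axis, with the members in genomic order and a point for the mean of 3 embryos of each line. *Pcdhgc3* was at 46.5 in the *Carm1* line and 55.6 in the *Pax3* line, above every other member; members without coordinates or with a mean of 0 have no point.

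The first comparison asked which members changed when CARM1 was lost. The cluster sums (gamma without *Pcdhgc3*) were lower in all 3 *Carm1* null embryos than in any wild-type embryo of the line. The alpha sum was 13.2, 14.7 and 14.8 CPM in the nulls and 20.0, 19.0 and 16.4 CPM in the wild types. The beta sum was 47.7, 55.1 and 54.9 CPM in the nulls and 74.3, 71.4 and 61.7 CPM in the wild types. The 21 gamma members other than *Pcdhgc3* summed to 144, 145 and 144 CPM in the nulls and to 204, 185 and 179 CPM in the wild types. The log2 ratio of the group means was thus nearly equal in the 3 clusters, at -0.38 for alpha, -0.39 for beta and -0.39 for gamma without *Pcdhgc3*. The type A and type B gamma genes, which alternate along the cluster, had the same ratio of -0.39 each. *Pcdhgc3* alone was counted at 122, 121 and 131 CPM in the nulls and at 119, 122 and 112 CPM in the wild types, and the groups overlapped. The sums are given as a description, with no test; the smallest two-sided p of an exact permutation test of 3 embryos against 3 is 0.10.

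**Figure D2:**
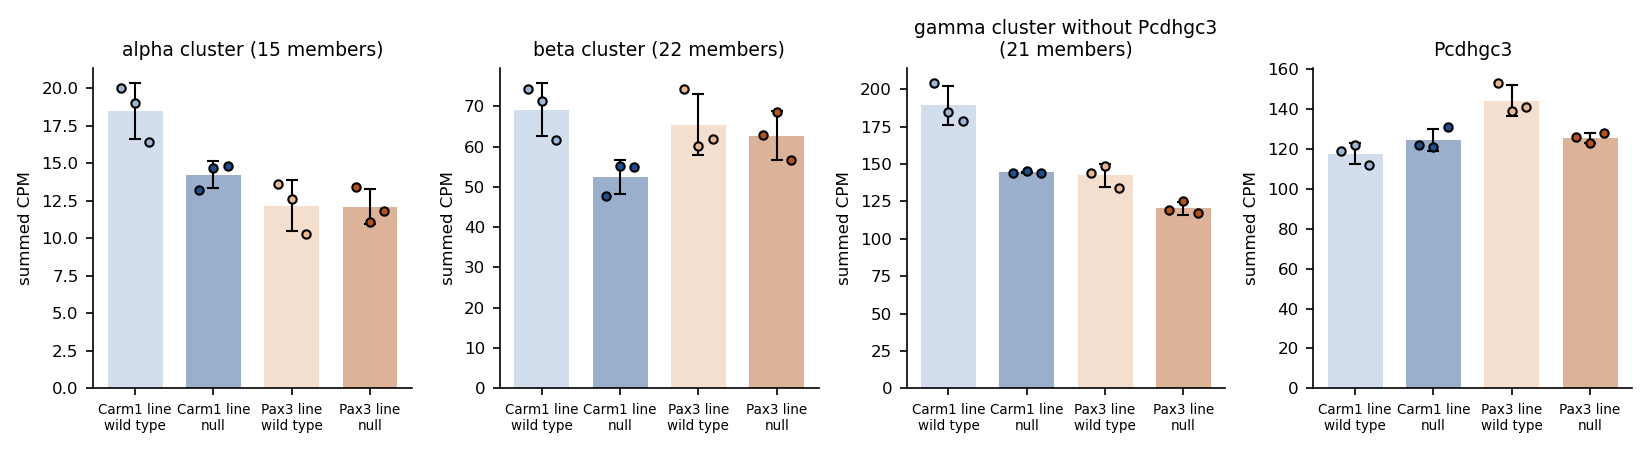
Summed CPM per embryo for the alpha cluster, the beta cluster, the gamma cluster without *Pcdhgc3*, and *Pcdhgc3*; points are embryos, bars group means and whiskers 1 SD (n = 3). The first 3 panels show the *Carm1* nulls below their wild types, and the last 2 panels show the *Pax3* nulls below theirs.

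Member by member, 51 of the 54 tested had a log2 fold change below 0 in the *Carm1* nulls, compared with 49.6% of all genes tested. The other 3 were *Pcdhgc3* (0.084), *Pcdhga5* (0.058) and *Pcdha3* (0.017). *Pcdhga5* was at 8.01, 7.18 and 5.85 CPM in the wild types and at 8.45, 6.78 and 6.54 CPM in the nulls. By the edgeR quasi-likelihood test, 15 members fell (27.8%) and 0 rose, with 0 higher at an unadjusted p under 0.05 or by DESeq2, whereas 13.3% of all genes were called, 7.83% lower and 5.49% higher. The calls were unequally spread, with 1 of 11 alpha, 3 of 21 beta and 11 of 22 gamma members, and the counts behind a member also differed between clusters as given above. The median log2 fold change was -0.49 in alpha, -0.44 in beta and -0.40 in gamma, against 0.0014 over all genes tested. The alpha median depended on the filter, at -0.18 with no filter on low counts and -0.24 with at least 10 counts in every library. All 3 nulls lay below all 3 wild types in 27 of the 54 members (50%), and in 15.7% of all genes, and the reverse held for 0 members and 14.2% of all genes.

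In the beta cluster, *Pcdhb6* had the largest change. Its counts were 2.73, 2.24 and 1.85 CPM in the wild types and 0.713, 0.616 and 1.24 CPM in the nulls. The groups did not overlap, and *Pcdhb6* fell by 1.40 on the log2 scale (SE 0.312, adjusted p = 0.00203). *Pcdhb7*, the beta member with the highest level, was at 6.94, 5.07 and 6.14 CPM in the wild types and at 3.62, 3.81 and 4.36 CPM in the nulls. *Pcdhb18* was at 4.86, 4.47 and 4.0 CPM in the wild types and at 2.80, 2.86 and 2.71 CPM in the nulls. Both fell, with log2 fold changes of -0.61 (adjusted p = 0.0112) and -0.67 (adjusted p = 0.0141). The remaining 18 tested beta members all had values below 0, from -1.11 to -0.0042, and did not pass the threshold. *Pcdhb20* was among them at -0.49 (adjusted p = 0.0553). It did pass in some alternatives, such as no filter on low counts, length and GC offsets, and leaving out wild-type replicate 3. *Pcdhb17* at -0.26 (adjusted p = 0.254) had wild-type values of 6.53 to 7.59 CPM that overlapped the null values of 4.77 to 6.78 CPM.

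In the gamma cluster, the type A genes *Pcdhga2*, *Pcdhga3*, *Pcdhga7*, *Pcdhga11* and *Pcdhga12* were among those that fell. *Pcdhga2* was at 10, 8.86 and 9.36 CPM in the wild types and at 6.15, 5.71 and 6.07 CPM in the nulls, a clear gap between the groups. Its log2 fold change was -0.65 (SE 0.128, adjusted p = 0.000561), the smallest adjusted p of any member. *Pcdhga3*, its neighbour, was at 11, 9.97 and 10.8 CPM in the wild types and at 7.79, 6.78 and 7.60 CPM in the nulls. It fell by 0.52 on the log2 scale (adjusted p = 0.00308). *Pcdhga12*, the last of the type A genes, was at 16.2, 13.7 and 13.0 CPM in the wild types and at 9.77, 10.5 and 10.6 CPM in the nulls, and fell by 0.47 (adjusted p = 0.00272). *Pcdhga7* went from 9.41 to 12.3 CPM in the wild types to 5.88 to 8.01 CPM in the nulls (log2 fold change -0.57, adjusted p = 0.00356). *Pcdhga11* went from 14.9 to 18 CPM in the wild types to 10 to 14.6 CPM in the nulls (log2 fold change -0.47, adjusted p = 0.00603). Neither of these pairs of ranges overlapped.

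The type B genes *Pcdhgb2*, *Pcdhgb6*, *Pcdhgb7* and *Pcdhgb8* fell too. *Pcdhgb6*, the most abundant of them, was at 22.8, 22.5 and 20.9 CPM in the wild types and at 18, 17.9 and 17.3 CPM in the nulls. *Pcdhgb7* was at 14.7, 14.9 and 15 CPM in the wild types and at 11.8, 10.3 and 11.3 CPM in the nulls. *Pcdhgb8*, a member of lower level, was at 4.92, 5.12 and 4.97 CPM in the wild types and at 2.91, 2.91 and 3.18 CPM in the nulls. In each of these the 3 embryos of a group lay close together and the groups were apart. The log2 fold changes were -0.31 for *Pcdhgb6* (adjusted p = 0.00806), -0.42 for *Pcdhgb7* (adjusted p = 0.00377) and -0.74 for *Pcdhgb8* (adjusted p = 0.00405). *Pcdhgb2* was at 5.72 to 6.68 CPM in the wild types and at 3.30 to 4.50 CPM in the nulls, with a log2 fold change of -0.62 (adjusted p = 0.00829).

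The C-type genes of both clusters did not move alike. *Pcdhgc4* was at 10.6, 9.72 and 8.92 CPM in the wild types and at 7.24, 7.0 and 7.72 CPM in the nulls, and fell by 0.41 on the log2 scale (SE 0.124, adjusted p = 0.0234). *Pcdhgc5*, which binds GABA-A receptors at synapses, had a log2 fold change of -0.52 (95% confidence interval -0.96 to -0.083, adjusted p = 0.11), with -0.34 without wild-type replicate 1 and -0.71 (adjusted p = 0.0461, edgeR) without wild-type replicate 2. *Pcdhac2* was at 6.4, 4.77 and 5.07 CPM in the wild types and at 3.13, 4.03 and 4.36 CPM in the nulls, without overlap. Its log2 fold change of -0.49 did not pass the threshold (adjusted p = 0.0632), but did with no filter on low counts (adjusted p = 0.0458, edgeR). *Pcdhac1*, counted at under 1.2 CPM in every embryo of the line, was at -0.96 (adjusted p = 0.203), and its value ran from -1.81 without null replicate 2 to -0.61 without wild-type replicate 2. *Pcdhgc3* was at 0.084 (95% confidence interval -0.014 to 0.18, adjusted p = 0.275), so that a fall as large as that of *Pcdhgc4* was outside its interval. The value for *Pcdhgc3* ran from 0.045 without null replicate 3 to 0.11 without null replicate 2 or wild-type replicate 2. As a share of all gamma counts, *Pcdhgc3* took 36.8% to 39.7% in the wild types and 45.5% to 47.7% in the nulls. *Pcdha12* (-0.24) and *Pcdha3* (0.017) were far from the threshold. Among the alpha genes only *Pcdha7* passed it, and among the gamma genes *Pcdhga10* did so as well; these 2 are named after their values were seen. *Pcdha7* was at 1.78, 1.98 and 1.32 CPM in the wild types and at 0.878, 0.728 and 0.825 CPM in the nulls (log2 fold change -1.06, adjusted p = 0.0238), and *Pcdhga10* had a log2 fold change of -0.46 (adjusted p = 0.0151).

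Of the 15 calls, 7 (*Pcdhb6*, *Pcdhga2*, *Pcdhga3*, *Pcdhgb6*, *Pcdhgb7*, *Pcdhgb8* and *Pcdhga12*) passed the threshold in all 16 alternative analyses, which included leaving out each embryo in turn. The other 8 missed it in at least 1 alternative, with adjusted p from 0.05 to 0.139. Without *Carm1* null replicate 1 the number of calls was 9, and without wild-type replicate 3 it was 18, all lower. That replicate was the only library of the line with over 100 counts on Y-linked genes. A model with a term for such libraries gave 18 members, but it in effect sets that replicate aside and is no separate check.

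The second comparison asked the same of the *Pax3* nulls, and there the gamma cluster alone held calls. By the edgeR test, 6 of the 54 members fell (11.1%) and 0 rose, and 24.5% of all genes tested were called, 10.5% lower and 14.0% higher. The share of members called lower was thus close to that of all genes called lower. The calls, all gamma, were 6 of 22 members (27.3%), and 20 of the 22 had log2 fold changes below 0, compared with 50.4% of all genes. In 13 of the 22 the nulls lay below all wild types, compared with 18.9% of all genes. The gamma median was -0.29, whereas the medians of the 11 alpha and 21 beta members were 0.051 and 0.0071. At an unadjusted p under 0.05 there was 1 alpha member (higher) and there were 0 beta members in the edgeR test, and DESeq2 called no member outside the gamma cluster. The alpha member, named after its values were seen, was *Pcdha10*, at 0.683, 0.174 and 0.301 CPM in the wild types and at 0.894, 0.911 and 0.764 CPM in the nulls (log2 fold change 1.11, adjusted p = 0.0578).

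**Figure D3:**
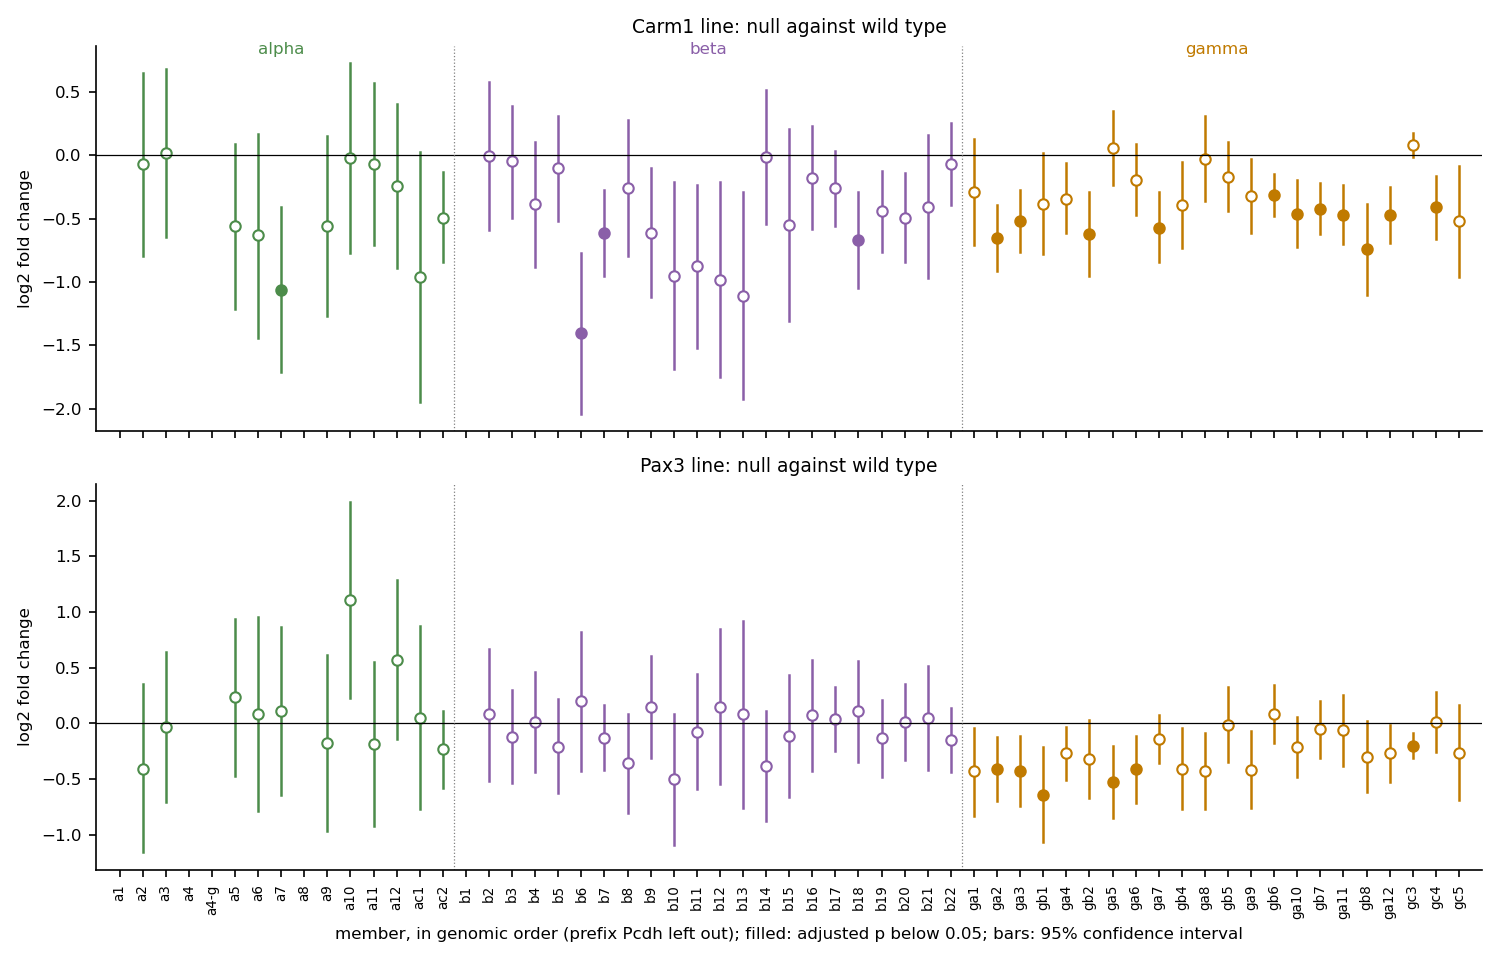
Log2 fold change of each tested member, null against wild type, in the *Carm1* line and in the *Pax3* line, with 95% confidence intervals and the members in genomic order; filled points passed an adjusted p of 0.05. In the *Carm1* line 51 of 54 points lie below 0 and the 15 filled points fall in all 3 clusters, and in the *Pax3* line the 6 filled points are all in the gamma cluster.

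*Pcdhgc3* was the member with the smallest adjusted p in the *Pax3* line. Its counts were 153, 139 and 141 CPM in the wild types and 126, 123 and 128 CPM in the nulls. The groups did not overlap, and *Pcdhgc3* fell by 0.20 on the log2 scale (SE 0.0548, adjusted p = 0.00847). Its share of the gamma counts was 48.2% to 51.5% in the wild types and 49.7% to 52.2% in the nulls, and these overlapped. The other gamma members summed to 144, 149 and 134 CPM in the wild types and to 119, 125 and 117 CPM in the nulls, a log2 ratio of -0.24. The type A genes had a ratio of -0.31 and the type B genes one of -0.17, a difference that was not tested. The alpha sum, at 13.6, 12.6 and 10.3 CPM in the wild types and 13.4, 11.1 and 11.8 CPM in the nulls, showed no separation. The beta sum overlapped as well, at 60.2 to 74.2 CPM in the wild types and 56.6 to 68.7 CPM in the nulls.

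Of the other *Pax3* line calls, *Pcdhga2* and *Pcdhga3* had also been called in the *Carm1* line. *Pcdhga2* was at 7.95, 8.17 and 6.66 CPM in the wild types and at 4.78, 6.19 and 6.11 CPM in the nulls (log2 fold change -0.41, adjusted p = 0.0349). *Pcdhga3* was at 8.20, 5.68 and 5.93 CPM in the wild types and at 4.74, 5.19 and 4.84 CPM in the nulls (log2 fold change -0.43, adjusted p = 0.0425). Without wild-type replicate 1, the embryo at 8.20 CPM, *Pcdhga3* was at -0.24 (adjusted p = 0.312, edgeR). In both the groups were apart, though by under 1 CPM. *Pcdhgb1* was at 3.37, 4.05 and 2.88 CPM in the wild types and at 2.19, 2.50 and 1.87 CPM in the nulls, and had the largest change, -0.64 (adjusted p = 0.0254). *Pcdhga5* was at 5.91 to 7.32 CPM in the wild types and 3.51 to 5.47 CPM in the nulls (log2 fold change -0.53, adjusted p = 0.0155). *Pcdhga6* was at 5.86 to 6.27 CPM in the wild types and 4.02 to 5.10 CPM in the nulls (log2 fold change -0.41, adjusted p = 0.04). The most abundant type B genes, *Pcdhgb6* (0.081, adjusted p = 0.689) and *Pcdhgb7* (-0.054, adjusted p = 0.792), did not pass the threshold. *Pcdhgc4* was at 0.0098 (95% confidence interval -0.26 to 0.28), *Pcdhgc5* at -0.27 (adjusted p = 0.373), *Pcdhac2* at -0.23 (adjusted p = 0.336) and *Pcdhac1* at 0.051 (adjusted p = 0.943). *Pcdhb6*, *Pcdhb7* and *Pcdhb18*, the beta genes called in the *Carm1* line, were at 0.20, -0.13 and 0.11 here.

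*Pcdhgc3* was the only one of the 6 calls that passed the threshold in all 16 alternative analyses. DESeq2 called 3 members. The number was 2 without null replicate 1 or null replicate 3, and 3 without wild-type replicate 1 (1 of them *Pcdha10*, higher) or wild-type replicate 2, and each of the other 5 calls missed the threshold when at least 1 embryo was left out. With length and GC offsets 4 members were called, without *Pcdhga3* and *Pcdhga6*, and *Pcdhga6* missed the threshold in 9 of the 16 alternatives.

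**Figure D4:**
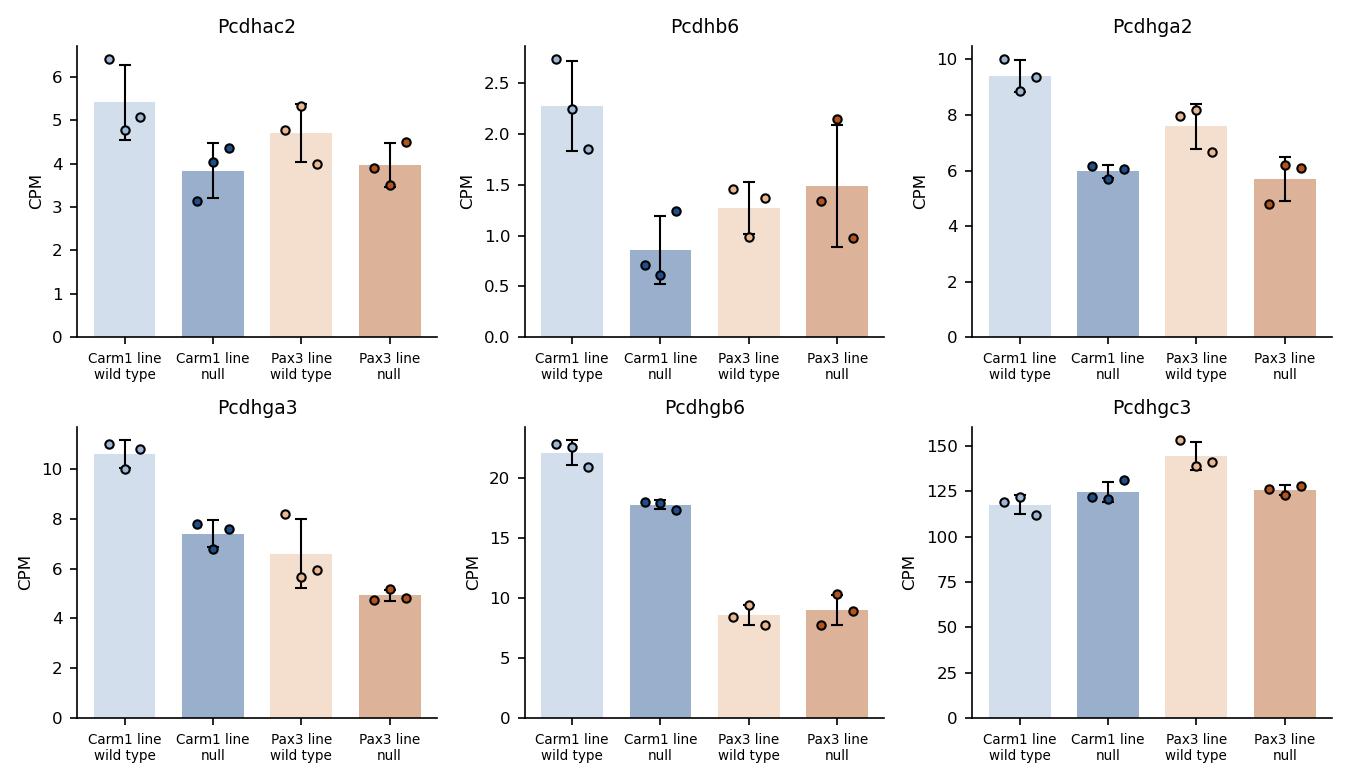
CPM of 6 members in every embryo, with points for embryos, bars for group means and whiskers for 1 SD (n = 3). *Pcdhga2* and *Pcdhga3* were lower in the nulls of both lines, *Pcdhb6* and *Pcdhgb6* in the *Carm1* nulls and *Pcdhgc3* in the *Pax3* nulls; the *Pcdhac2* groups are apart in the *Carm1* line, without passing the threshold.

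A direct test of the difference between the effects in the lines was passed by 2 members (3.70%), compared with 19.1% of all genes tested (10.5% with the *Carm1* effect below the *Pax3* effect and 8.65% above it). *Pcdhgc3* had a *Carm1* effect that lay 0.30 above its *Pax3* effect on the log2 scale (SE 0.0728, 95% confidence interval 0.15 to 0.44, adjusted p = 0.00394). *Pcdhb6* had a *Carm1* effect below its *Pax3* effect, with a difference of -1.59 (SE 0.446, 95% confidence interval -2.50 to -0.68, adjusted p = 0.0109). For the other 52 members the effects were not shown to differ, which includes every alpha member. *Pcdhga5* was also among the 52, at 0.60 (adjusted p = 0.0532), and passed the threshold in some alternatives, such as length and GC offsets. The alpha members differed by a median of -0.70 with a median standard error of 0.495, and the beta members by -0.43 with 0.343, so that differences of this size were not detectable at this depth for most of them.

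The wild types of the 2 lines were also compared with each other. *Carm1* line wild types were higher in 15 members and lower in 2 (31.5% of the 54), compared with 43.7% of all genes tested, of which 23.1% were higher and 20.6% lower. *Pcdhga11* was at 16.6 ± 1.54 CPM in the *Carm1* line and at 5.32 ± 0.634 CPM in the *Pax3* line when all 12 libraries were scaled together (log2 difference 1.64, SE 0.132, adjusted p = 1.17e-11). *Pcdhgb6* was at 22.4 ± 1.04 against 8.46 ± 0.818 CPM (log2 difference 1.41, SE 0.104, adjusted p = 1.1e-12). On the same scale *Pcdhgb6* was at 18 ± 0.419 CPM in the *Carm1* nulls and at 8.84 ± 1.25 CPM in the *Pax3* nulls, and *Pcdhga11* at 12 ± 2.51 and 5.06 ± 0.523 CPM. *Pcdhgb5* had the next smallest adjusted p, with a log2 difference of 0.98 (adjusted p = 2.3e-06). In the opposite direction, *Pcdhga4* was at -0.55 (adjusted p = 0.000322) and *Pcdhgc3* at -0.26 (adjusted p = 0.000138). *Pcdhga4* and *Pcdhgb5* are named after their values were seen. All 11 alpha members tested had log2 differences above 0, and 5 of them passed the threshold, whereas the beta median was 0.075. Line, strain, colony and laboratory cannot be told apart in this comparison.

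Other genes of the same pathway were examined through lists, whose counts stand beside 7.83% of all genes called lower and 5.49% higher in the *Carm1* line, and 10.5% and 14.0% in the *Pax3* line. Of 20 regulators of the clusters, 0 were called lower (1 at an unadjusted p under 0.05, 0 by DESeq2) and 2 higher in the *Carm1* nulls: *Dnmt3b*, a DNA methyltransferase that marks variable promoters, at 0.30 (adjusted p = 0.00641), and *Trim28*, a corepressor, at 0.17 (adjusted p = 0.0102). *Ctcf*, which encodes the looping factor of the promoters, was at 0.019 there (adjusted p = 0.826). In the *Pax3* nulls 11 of the 20 were called lower and 1 higher. These 11 included the cohesin genes *Rad21* (-0.19), *Stag2* (-0.29), *Smc1a* (-0.17) and *Smc3* (-0.15), the cohesin loader gene *Nipbl* (-0.21) and the chromatin silencer *Smchd1* (-0.21). *Ctcf* was at -0.11 (adjusted p = 0.134, edgeR). With length and GC offsets, calls over all genes in the *Pax3* line went from 3851 to 2605, and no list counts are given here with those offsets. Of 20 genes for adhesion and signalling partners, 1 was called lower and 2 higher in the *Carm1* nulls by edgeR, and 1 lower and 0 higher by DESeq2. The lower one in edgeR was *Nlgn2* at -0.18 (adjusted p = 0.00766). *Axin1*, the Wnt pathway scaffold that binds PCDHGC3, was among the higher ones at 0.15 (adjusted p = 0.0408). In the *Pax3* nulls 8 of these 20 were called lower and 2 higher. Of 12 protocadherins outside the clusters, 1 was called lower (*Pcdh7*, -0.23) and 1 higher (*Pcdh19*, 0.17) in the *Carm1* nulls, and 3 lower and 1 higher in the *Pax3* nulls. DESeq2 called 1 lower and 0 higher in the *Carm1* nulls, so that *Pcdh19* was not called there. The medians of this list were -0.13 and -0.16.

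Genes that flank the clusters gave a second point of reference. Of 21 neighbouring genes tested, including *Taf7* inside the region, 0 were called in the *Carm1* nulls by edgeR or DESeq2 (1 lower and 3 higher at an unadjusted p under 0.05), and their median was 0.022. In the *Pax3* nulls 2 were called lower and 5 higher. *Ndufa2*, a subunit of respiratory complex I, was the most changed of them, at 21.7, 38.3 and 29.1 CPM in the *Pax3* line wild types and at 76.1, 71.0 and 73.7 CPM in the nulls (log2 fold change 1.32, adjusted p = 0.0135).

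Markers of neurons also differed between nulls and wild types. All 20 neuron markers had log2 fold changes below 0 in the *Carm1* nulls and 9 were called lower. Their median was -0.16, against -0.44 in the beta and -0.40 in the gamma cluster, and they ran from -0.44 (*Mapt*) to -0.0085 (*Elavl4*). Their summed level was 2874 to 2918 CPM in the nulls and 3173 to 3388 CPM in the wild types. That sum is weighted towards abundant markers such as *Tubb3* (-0.11), *Dcx* (-0.25) and *Map2* (-0.013). Of 15 neural progenitor markers, 11 were called higher (median 0.33), at 1666 to 1740 CPM in the nulls and 1329 to 1407 CPM in the wild types. Expressed per 100 CPM of neuron markers, the gamma members without *Pcdhgc3* were at 4.92, 4.97 and 5.01 in the *Carm1* nulls and at 6.42, 5.47 and 5.59 in the wild types, still apart. The beta members were at 1.64 to 1.91 in the nulls and at 1.92 to 2.34 in the wild types, nearly touching, and the alpha members overlapped. *Pcdhgc3* was higher in the nulls on this scale, at 4.15 to 4.57 against 3.50 to 3.74. In the *Pax3* nulls 7 neuron markers were called lower and 3 higher (median -0.07), at 2746 to 2986 CPM against 3002 to 3246 CPM, and 7 of 15 progenitor markers were called higher. Markers of sensory and sympathetic neurons were called lower for 6 of 12 genes (median -0.32) in the *Pax3* nulls and for 4 of 12 (median -0.16) in the *Carm1* nulls. Per 100 CPM of neuron markers, all 4 sets of members overlapped between the *Pax3* line groups. The part of neuron number in these differences was not tested.

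Markers of tissues outside the nervous system moved as well. In the *Carm1* nulls 9 of 10 hepatocyte markers (median -1.04), 7 of 10 skeletal muscle markers (median -0.41) and 7 of 10 erythroid markers (median -0.52, 1 other higher) were called lower. The hepatocyte sum was 860 to 1039 CPM in these nulls and 1562 to 1888 CPM in the wild types, the muscle sum 615 to 674 against 813 to 966 CPM, and the erythroid sums overlapped. In the *Pax3* nulls the counts called lower were 3 of 10 (median -0.25, 1 other higher), 9 of 10 (median -0.74) and 1 of 10, and the muscle sum was 269 to 307 against 482 to 550 CPM. No defining marker of these lists was at 0 in all libraries, and their part in the protocadherin values was not tested.

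**Figure D5:**
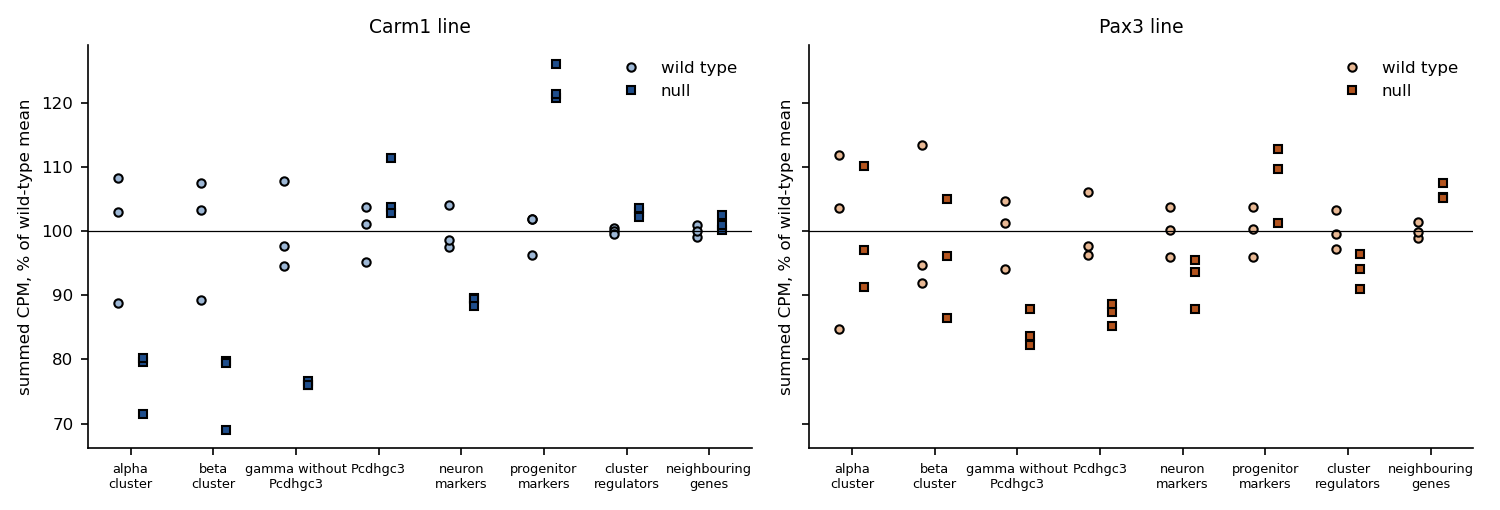
Summed CPM of the 3 clusters, *Pcdhgc3* and 4 gene lists in every embryo, as a percentage of the mean of the line's wild types, with circles for wild types and squares for nulls. In the *Carm1* nulls the alpha sum, the beta sum and the sum of gamma without *Pcdhgc3* lie below the neuron markers. The cluster regulators and neighbouring genes stay near 100 there. In the *Pax3* nulls the gamma sum, *Pcdhgc3*, the neuron markers and the cluster regulators lie below 100, and the neighbouring genes above it.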

How the data were processed

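Polyadenylated RNA from 12 whole embryos was sequenced as paired reads of 150 bases. The authors aligned the reads to mm10 with STAR and deposited raw counts of reads on the exons of each gene, made with featureCounts; versions, strandedness and the handling of reads that overlap several genes are not given in the sources used here. *Pcdha4* and *Pcdha4-g* had 5 and 0 counts over all libraries. Groups came from the labels, and 0 columns were left unused.

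Each line (6 libraries) was fitted in edgeR 4.0.16 (R 4.3.3) with the robust quasi-likelihood test, trimmed mean of M-values (TMM) factors and its default filter on low counts, and Benjamini-Hochberg adjustment over all genes tested, with a threshold of 0.05. The difference between the lines and the comparison of wild types came from a fit of all 12 libraries. CPM were scaled by the TMM factors of the line. Exon lengths and coordinates came from GENCODE vM21. DESeq2 1.42.0, the tool of the study, other normalizations and filters, a replicate block, length and GC offsets and leaving out each embryo were alternatives. The code was tested on simulated data. Intervals are at 95%.

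The members and lists were chosen with earlier results of these data known; *Srd5a3* was later left out of the neighbouring genes because it lies on another chromosome. Named members were, in each line, those past the threshold (the 12 with the smallest adjusted p where more passed), the 5 C-type genes and the 3 of highest level in each cluster; others appear as counts and ranges, or are said to be named after their values were seen. No sequence is printed.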

Additional observations from a re-analysis of the deposited data

Results flagged for a closer look

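The effects of the 2 null genotypes differed for *Pcdhgc3* and *Pcdhb6* in the direct test of the difference between the lines. For *Pcdhgc3* the *Carm1* effect minus the *Pax3* effect was 0.30 on the log2 scale (adjusted p = 0.00394, edgeR), with nulls at 125 ± 5.80 CPM and wild types at 118 ± 4.98 CPM in the *Carm1* line and nulls at 126 ± 2.20 and wild types at 144 ± 7.95 CPM in the *Pax3* line. The call held in all 18 alternatives. For *Pcdhb6* the difference was -1.59 (adjusted p = 0.0109), and without *Pax3* null replicate 2, the embryo with 2.14 CPM against 1.34 and 0.976 CPM in the other nulls, it was -1.24 (adjusted p = 0.0621).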

How the results depend on the processing

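In the *Carm1* line, 15 members were called and the alternatives other than leaving out an embryo gave 13 to 18; leaving out 1 embryo gave 9 to 18. In the *Pax3* line, 6 were called, DESeq2 gave 3, length and GC offsets gave 4, a Y-linked term gave 5 and leaving out 1 embryo gave 2 to 6. One fit of all 12 libraries gave 8, adding *Pcdhga8* and *Pcdhga9*, which are named after their values were seen. For the difference between the lines, 2 were called, offsets for length and GC content (added for this comparison after seeing the data) gave 4, and leaving out 1 embryo gave 1 to 5. The comparison of wild types gave 12 to 20 around 17. No member called in either line or for the difference between the lines changed direction under any alternative. The *Carm1* line alpha median was -0.18 without a filter on low counts and -0.24 with at least 10 counts in every library, since the filter decides which low members enter. The *Pax3* line alpha median moved between -0.11 and 0.22 when an embryo was left out. The replicate numbers were not shown to pair the samples. Correlations of same-numbered deviations were -0.0411, 0.000822 and -0.042 in the *Carm1* line and 0.133, -0.0916 and 0.227 in the *Pax3* line. Differently numbered pairs of the *Pax3* line ran from -0.325 to 0.236. With a replicate block 15 and 7 members were called, the seventh being *Pcdha10*, higher in the *Pax3* nulls. With the length and GC offsets the share of all called genes that were higher went from 41.2% to 59.9% in the *Carm1* line, where the 17 members then called were all lower. In the *Pax3* line it went from 57.1% to 55.7%. It went from 45.3% to 55.2% above in the difference between the lines, and from 52.8% to 30.2% in the comparison of wild types. All genes called went from 2106 to 3192 in the *Carm1* line and from 3851 to 2605 in the *Pax3* line. The shares of all genes given beside the members are those of the main fit. Depth limits the alpha cluster, where tested members had a median of 22.8 counts per library in the *Carm1* line and 17.2 in the *Pax3* line.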
